A study of Homo sapiens with 8 samples.

Results

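The regions described here are narrow stretches of chromatin that were called as peaks after every treatment of a myeloma cell line and that lie away from the ends of protein-coding genes. Peaks of the 4 deposited lists on chromosomes 1 to 22 and X that shared at least 1 bp were merged, and a merged region was kept when all 4 lists had a peak in it, when it was under 3000 bp wide, and when its midpoint was more than 1000 bp from both annotated ends of every protein-coding gene. This gave 10809 members, 55.8% of the 19384 regions called in all 4 lists and 16.1% of the 67328 merged regions. The members were chosen by their peak calls, widths and positions in these lists, and those values are given as description only. Being called in every list does not mean equal enrichment: the range of the centred log2 level, the log2 fold minus the list's median over all regions called in all 4 lists, over the 4 lists had a median of 1.14 in members.

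OPM-2 is an established human multiple myeloma line that carries the t(4;14) translocation. The cells were cultured for 72 h with 1 µM all-trans retinoic acid plus 1 µM pomalidomide (ATRA+POM), 1 µM pomalidomide alone (POM), 1 µM all-trans retinoic acid alone (the ATRA-labelled list) or the solvent (DMSO). All-trans retinoic acid is the ligand of the retinoic acid receptors, and pomalidomide redirects the ubiquitin ligase built around cereblon so that IKZF1 and IKZF3 are destroyed. Chromatin immunoprecipitation was sequenced once per treatment, with 1 input each, in cells of this line alone, and the labels speak of transcription factor binding without naming the antibody. In bulk material, fewer cells with a bound site and less binding per cell cannot be told apart.

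Regulatory DNA away from gene ends includes enhancers, where transcription factors bind and act on promoters over a distance, insulators, and promoters of noncoding RNAs or of alternative transcripts. In plasma cells, factors such as IRF4 and the Ikaros proteins work largely through such sites. Retinoic acid receptors bind DNA as partners of retinoid X receptors, at pairs of the motif AGGTCA.

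Fold enrichment is the authors' value for a peak, the enrichment at its summit over a background, for which neither labels nor files say whether the ChIP library or its input was used. The strongest peak of a region stood for it in each list. The members had a median fold of 11.4 in the ATRA+POM list, 19.1 in the POM list, 13.0 in the ATRA-labelled list and 18.4 in the DMSO list, with a median of 115, 186, 31 and 206 reads under the summit in the same order. Sequencing depth was not stated, and the few reads of the ATRA-labelled list set its precision. Because the lists differ in fold and in reads over all regions, differences between lists are given as centred log2 values, which are log2 ratios of fold minus the median ratio over the 19384 regions of all 4 lists. The subtracted medians were -0.79 for ATRA+POM over POM, -0.24 for ATRA+POM over ATRA-labelled, -0.76 for ATRA+POM over DMSO, 0.06 for POM over DMSO and -0.47 for ATRA-labelled over DMSO. With 1 library per treatment there was no test of any difference, and 2-fold is a rule of size.

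Some members lie at starts that protein-coding gene ends do not show, and their sequences are given because these are the members whose DNA can be tied to a named start. In 115 members, 1.06% of all, the 4 summits fell within the 250 bases before an annotated RefSeq start (build GRCh38.p14). These held 119 starts, 49 of long noncoding RNAs and 70 of protein-coding genes. The windows below are the 250 bases before the start, written 5′ to 3′ on the strand of the gene, and capitals mark motif matches. They were chosen for their values: DYNC2I2, which encodes a subunit of the dynein motor of cilia, and MEF2C-AS2 for high fold in every list, LINC02706 and LOC107986127 because both pomalidomide lists were higher there, and LINC00359 because both were lower.
DYNC2I2, chr9:128656848-128657097, minus strand: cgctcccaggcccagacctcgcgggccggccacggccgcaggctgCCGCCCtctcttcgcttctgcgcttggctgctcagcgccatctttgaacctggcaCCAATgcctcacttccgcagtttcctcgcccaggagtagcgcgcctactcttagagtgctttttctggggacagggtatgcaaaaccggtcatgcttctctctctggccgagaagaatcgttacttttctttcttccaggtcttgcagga
MEF2C-AS2, chr5:88675968-88676217, plus strand: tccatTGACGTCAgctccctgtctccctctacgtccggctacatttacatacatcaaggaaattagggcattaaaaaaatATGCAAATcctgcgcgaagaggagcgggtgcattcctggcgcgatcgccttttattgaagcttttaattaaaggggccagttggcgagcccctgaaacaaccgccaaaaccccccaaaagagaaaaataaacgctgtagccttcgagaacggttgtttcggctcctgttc
LINC02706, chr11:134712176-134712425, plus strand: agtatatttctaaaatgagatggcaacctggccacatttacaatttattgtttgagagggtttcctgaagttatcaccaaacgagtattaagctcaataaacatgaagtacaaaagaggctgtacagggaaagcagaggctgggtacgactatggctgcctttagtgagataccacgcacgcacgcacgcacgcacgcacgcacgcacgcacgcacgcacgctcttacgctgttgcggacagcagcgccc
LOC107986127, chr3:127750638-127750887, minus strand: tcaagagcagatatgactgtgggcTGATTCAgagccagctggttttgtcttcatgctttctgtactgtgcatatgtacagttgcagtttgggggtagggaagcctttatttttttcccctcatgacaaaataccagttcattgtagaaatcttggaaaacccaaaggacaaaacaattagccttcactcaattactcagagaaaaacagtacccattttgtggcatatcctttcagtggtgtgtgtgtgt
LINC00359, chr13:96984173-96984422, minus strand: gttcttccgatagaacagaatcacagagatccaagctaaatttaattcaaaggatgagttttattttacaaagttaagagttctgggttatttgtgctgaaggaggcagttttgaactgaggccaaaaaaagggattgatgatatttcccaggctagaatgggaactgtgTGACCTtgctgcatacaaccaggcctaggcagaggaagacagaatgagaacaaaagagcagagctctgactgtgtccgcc

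The DYNC2I2 window holds a GC box (GGGCGG) and a CCAAT box, and the MEF2C-AS2 window a cyclic AMP response element (TGACGTCA) and an octamer (ATGCAAAT), each searched on both strands. The LOC107986127 window holds an AP-1 motif (TGANTCA) and the LINC00359 window a single AGGTCA hexamer, not the pair that retinoid receptors bind, and the LINC02706 window holds a run of 48 bases in repeats of CACG. Among the 49 noncoding windows, the cyclic AMP response element was found in 4 (8.16%), against 1.02% of all 12829 such windows. The ETS core (CCGGAAG) was found in 9 (18.4%), against 4.82%. A single AGGTCA hexamer was found in 14.3%, against 14.7%, and the CCAAT box in 22.4%, against 30.7%. The response element and the ETS core are named as the most raised of the motifs searched. Both hold a CG, and the median ratio of observed to expected CG was 0.55 in the 49 windows, against 0.286 in all. The part of this in the shares was not tested. Among the 70 protein-coding windows, the GC box was found in 40%, against 53.7% of all 22131. These are letter matches in a window and show no binding.

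The DYNC2I2 region had a fold of 122.5 in the ATRA+POM list, 148 in the POM list, 90.5 in the ATRA-labelled list and 143 in the DMSO list. The MEF2C-AS2 region, 41.8 kb from MEF2C (a transcription factor gene of B and plasma cells), had 85.3, 134, 85.5 and 85.1 in the same order. Both were high in every list, and the summits lay 44 to 77 bases before the DYNC2I2 start and 53 to 64 bases before that of MEF2C-AS2. LINC02706 had 294 in the ATRA+POM list and 326 in the POM list, against 52.0 in the ATRA-labelled list and 68.0 in the DMSO list. LOC107986127, inside MGLL (the gene of an enzyme that breaks down monoacylglycerols), had 42.8, 148, 18.6 and 17.4 in that order, and LINC00359 had 4.26, 5.97, 14.1 and 17.7. In each of these 3 regions the pomalidomide lists stood on one side and the ATRA-labelled and DMSO lists on the other; whether the repeat at LINC02706 bears on its values was not tested.

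Of 1558 annotated microRNA hairpins, 20 overlapped a member, some only in part, and no background share was computed for them. Their 26 mature forms had 26 different seeds (bases 2 to 8), so no seed was shared. Mature sequences from RefSeq (GRCh38.p14) are given for the hairpin next to the strong MEF2C-AS2 region and for both hairpins whose region separated the pomalidomide lists from the others, with the seed in capitals.
hsa-miR-9-5p, chr5:88666902-88666924, minus strand: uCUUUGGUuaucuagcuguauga
hsa-miR-5700, chr12:94561794-94561815, plus strand: uAAUGCAUuaaauuauugaagg
hsa-miR-759, chr13:52810073-52810094, plus strand: gCAGAGUGcaaacaauuuugac

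The region of MIR9-2, a microRNA gene best known from the developing nervous system, had a fold of 27.8 in the ATRA+POM list, 20.4 in the POM list, 39.1 in the ATRA-labelled list and 45.1 in the DMSO list. That of MIR5700 had 28.1 and 54.8 in the pomalidomide lists, ATRA+POM and then POM, against 8.04 in the ATRA-labelled list and 8.19 in the DMSO list. For MIR759 the values were 3.84 in the ATRA+POM list and 7.18 in the POM list, against 15.5 in the ATRA-labelled list and 26.02 in the DMSO list. MIR5700 was thus higher and MIR759 lower in both pomalidomide lists, while for MIR9-2 the ATRA+POM value lay 1.24 above the POM value on the centred log2 scale.

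The members had a median width of 1375 bp (quartiles 868 and 2004) and lay a median of 28408 bp from the nearest protein-coding gene end. The widest members, at PTPN4, ANOS1 and SESN2, were 2999, 2999 and 2998 bp wide with a DMSO fold of 35.0, 53.3 and 59.0, and the regions just outside the width limit, at CDK13 and SRSF11, were 3000 bp wide with 33.5 and 69.98. The members closest to the distance limit, at AUP1, PRCC and ST3GAL5, had a DMSO fold of 9.94, 12.1 and 8.22, and the regions just within it, at ZNF282, TTF2 and MDH1, 14.6, 8.94 and 43.2. The DMSO median fold was 18.4 in members and 22.3 in narrow regions at gene ends, whereas regions of 3000 bp or more had 43.0. The members were a varying share of the regions of all 4 lists on each chromosome, from 34.6% on chromosome 19 to 66.2% on chromosome 18.

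**Figure D1:**
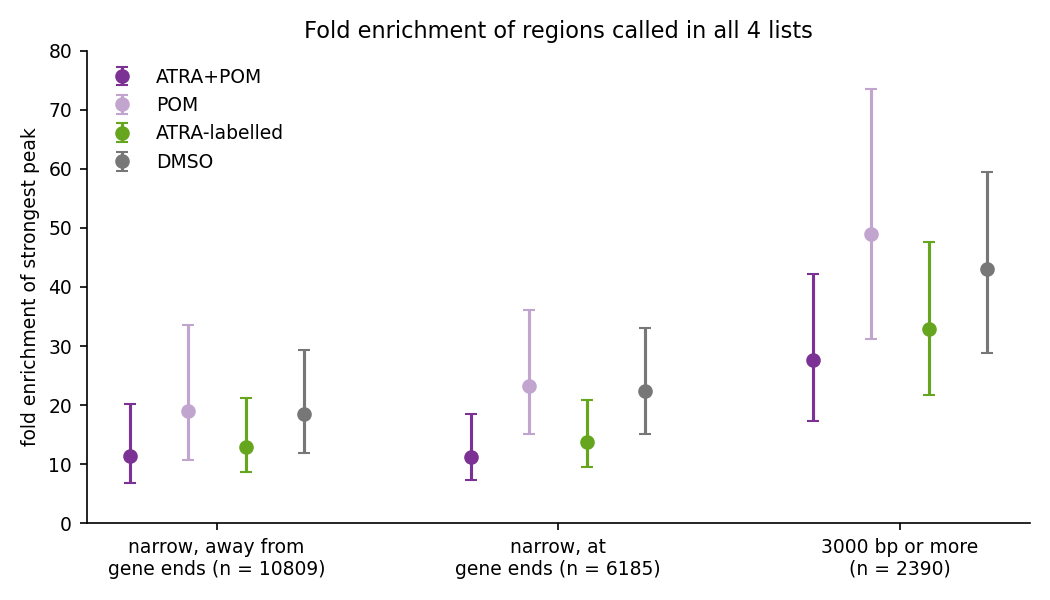
Fold enrichment of the strongest peak (vertical axis, the authors' ratio) in the 3 classes of regions called in all 4 lists, by list; points are medians and bars run between the quartiles. The medians of members lie between 11.4 (ATRA+POM) and 19.1 (POM), against 11.3 and 23.2 in narrow regions at gene ends, and below those of regions of 3000 bp or more in every list.

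Members lay inside gene bodies more often than regions of 1 to 3 lists away from gene ends, and less often than regions of 3000 bp or more there. The midpoint was in a protein-coding gene body for 57.0% of members (95% Wilson interval 56.0 to 57.9, counting error only), against 50.4% of the 41824 regions called in 1 to 3 lists and away from gene ends, a difference of 6.55 percentage points (Newcombe interval 5.50 to 7.60). Gene bodies make up 41.6% of the sequence. Of the regions of 3000 bp or more away from gene ends 72.0% were inside a body, a difference, members minus these, of -15.0 points (-17.1 to -12.8). A further 12.1% of members lay in a long noncoding RNA gene alone and 30.9% in neither kind of gene.

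Not every member was distant from transcription start sites. Of the 10305 members outside chromosome 8, 11.3% had a midpoint within 1000 bp of an annotated start (10.7 to 11.9), against 4.44% of regions of 1 to 3 lists away from gene ends, a difference of 6.85 points (6.22 to 7.51). These starts belonged to long noncoding RNAs for 4.85% of members and to protein-coding genes for 7.51%, some members having both. At the other end, 66.2% of members were over 10 kb and 16.2% over 100 kb from any annotated start.

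Summit positions were closely shared among the lists. In 56.6% of members all 4 summits lay within 100 bp of each other (55.7 to 57.6), against 55.6% of narrow regions at gene ends, a difference of 1.02 points whose interval (-0.53 to 2.57) includes 0. In regions of 3000 bp or more away from gene ends the share was 38.7%, a difference of 18.0 points (15.6 to 20.2). The width limit bounds how far apart the summits of a member can lie, and the part of width in this difference was not tested. The median distance between the outermost of the 4 summits was 77 bp in members.

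The strongest members, ranked by their mean −log10 p percentile over the 4 lists, were led by regions at DUSP22 (a phosphatase), MEF2C-AS2, BTN2A1 (a butyrophilin), PAK1 (a kinase), CABLES1 and the noncoding gene FIRRE. Regions at PPDPFL, PLA2G4A (a phospholipase A2), KCNT2 and DAB2 followed. Noncoding genes aside, regions here and in the comparisons below are named by the gene of the nearest end, which can be far away. The distance was 43.3 kb for CABLES1, 336 kb for PPDPFL, 1029 kb for KCNT2 and 36.8 kb for DAB2. The DUSP22 region had a fold of 77.2 in the ATRA+POM list, 134 in the POM list, 78.6 in the ATRA-labelled list and 91.6 in the DMSO list, with 2276, 4383, 405 and 2944 reads under the summit. The FIRRE region had 103, 144, 102 and 106 in that order. None of the 10 strongest was past 2-fold in any of the 5 comparisons. A rank averaged over the 4 lists admits only regions strong in every list, so this follows largely from the ranking.

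Members often stood in groups. Joined across gaps of at most 12.5 kb, 4179 members (38.7%) formed 1803 groups, of which 39 held 5 or more. Only peaks that shared a base were merged, and with peaks within 500 bp merged the members numbered 8102. Some members of a group may thus be pieces of the same enriched stretch. The largest group held 19 members over 86.6 kb of the X chromosome (X:131727958-131814536) inside FIRRE, a noncoding RNA gene whose RNA takes part in the folding and positioning of chromatin in the nucleus. In all, FIRRE held 22 members with a median width of 972.5 bp and a median gap of 3297 bp, and in 14 of them the summits of all lists were within 100 bp. Their median fold was 28.7 in the ATRA+POM list, 65.3 in the POM list, 37.1 in the ATRA-labelled list and 65.0 in the DMSO list. None of the 22 was past 2-fold in POM over DMSO.

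The next largest group held 13 members over 41.4 kb of chromosome 2 (2:87474264-87515685) in the overlapping noncoding genes CYTOR and NCAL1. MIR4435-2HG, elsewhere on the chromosome, held 11, with a median fold of 20.6 in the ATRA+POM list and 29.2 in the POM list, against 11.2 in the ATRA-labelled list and 20.7 in the DMSO list. CYTOR and MIR4435-2HG are near-identical copies in part, so reads may be split between them, and how reads with several matches were treated is not given in the sources used here. On the X chromosome DANT2, a noncoding gene at the DXZ4 macrosatellite, held 9 members, 2 of them lower in POM over DMSO. Other large groups held 7 members inside SNX25, 7 with their nearest gene ends at BTN3A2 and H4C8, and 6 with theirs at OSBP and OR4D9. Among protein-coding loci (gene body with 5 kb on both sides), IMMP2L and XYLT1 had 14 members each, BCAS3 and RBM47 11 each, ATXN1, CSMD1, DST and PACS1 10 each, and DIP2C and NSMCE2 9 each.

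Comparison of POM with DMSO asked which sites differ under pomalidomide. In POM over DMSO, 1412 members (13.1%) were at least 2-fold higher and 1709 (15.8%) at least 2-fold lower, against a background over all regions of the 4 lists of 10.8% higher and 11.9% lower. Narrow regions at gene ends were past 2-fold less often, 6.00% higher and 6.86% lower. Regions of 3000 bp or more were 13.2% higher, much as members were, and 7.45% lower. The spread of the centred log2 values was larger in members (SD over regions 0.99) than at gene ends (0.67), and 0.87 in regions of 3000 bp or more. With the ATRA-labelled list left out of the rule, 15608 regions qualify, of which 2760 were higher and 2207 lower. With all 4 lists, the split was 1710 higher and 1558 lower by summit reads, and 1507 higher and 1446 lower when centred within 10 strata of level, so the more frequent direction was not stable over these settings. Every member had a peak in each list, so changes that ended a call are not among these counts.

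Among the highest members in POM over DMSO were those at NEGR1 (a neuronal adhesion molecule), DLEU7 (182 kb away), ALG14 (a subunit of the enzyme that adds the second sugar of N-glycans) and MOXD1 (105 kb away). The NEGR1 region had a fold of 77.9 in the POM list, against 5.02 in the DMSO list, on 2721 and 63 reads, a centred log2 difference of 3.90. The 5 lowest were at DAB2 (335 kb away), GOLPH3 (a Golgi protein), TASOR2, EDEM1 (a lectin of endoplasmic reticulum quality control) and TEX11. The GOLPH3 region had 4.96 in the POM list, against 95.7 in the DMSO list, on 93 and 1860 reads, a difference of -4.33. The members named were taken among those past 2-fold in the same direction by fold and by summit reads. That reads and fold moved together in both examples follows from this choice.

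ATRA+POM over DMSO showed how sites stood with both compounds. Here 1893 members (17.5%) were 2-fold higher and 1310 (12.1%) 2-fold lower, against a background of 13.1% and 11.3%. Relative to narrow regions at gene ends in place of all regions the split was 2341 higher and 1003 lower, and without centring it was 584 higher and 3925 lower, so the balance of directions rests on the scaling. With the ATRA-labelled list left out of the rule, 3485 regions were higher and 1811 lower. The highest members were at NEGR1, UBE2Q2 (a ubiquitin conjugating enzyme, 26.2 kb away), DNAH7 (a dynein heavy chain), SOX11 (a transcription factor, 29.6 kb away) and MOXD1. The lowest were at EDEM1, GOLPH3, ZNF423 (24.2 kb away), SUN1 and STT3B (319 kb away). The SOX11 region had a fold of 40.5 in the ATRA+POM list, 18.0 in the POM list, 4.19 in the ATRA-labelled list and 4.79 in the DMSO list. At STT3B the values were 4.63, 32.2, 60.8 and 64.4, so that the ATRA+POM list was far below each of the others.

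ATRA+POM over ATRA-labelled compared cells with and without pomalidomide in the presence of the retinoid. In this comparison 1760 members (16.3%) were 2-fold higher and 1565 (14.5%) 2-fold lower, against a background of 12.9% and 12.3%. By summit reads the split was 2334 higher and 1264 lower, and without centring 1223 higher and 2189 lower. The highest members were at NEGR1, ABCB9 (a lysosomal peptide transporter), MOXD1, DNAH7 and ALG14. The lowest were at GOLPH3, CAMKMT, LOC124901867, LOC124902528 (447 kb away) and EDEM1. The ABCB9 region had a fold of 80.4 in the ATRA+POM list, against 6.18 in the ATRA-labelled list, the last from 10 reads.

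The pomalidomide comparisons with and without retinoid share no library, so they can be set against each other. Across the 10809 members, the centred log2 values of ATRA+POM over ATRA-labelled and of POM over DMSO correlated with a Pearson r of 0.642 (Spearman rho 0.603), and by summit reads with 0.726. All points come from the same libraries, and regions are not replicates. Of the 1412 members 2-fold higher in POM over DMSO, 773 (54.7%) were also 2-fold higher in ATRA+POM over ATRA-labelled, where they made up 43.9% of those higher. Of the 1709 lower ones, 785 (45.9%) were lower in the other comparison, which is 50.2% of those. Opposite differences past 2-fold were seen in 3 and 29 members of these sets. The same r was 0.336 in narrow regions at gene ends and 0.722 in regions of 3000 bp or more.

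**Figure D2:**
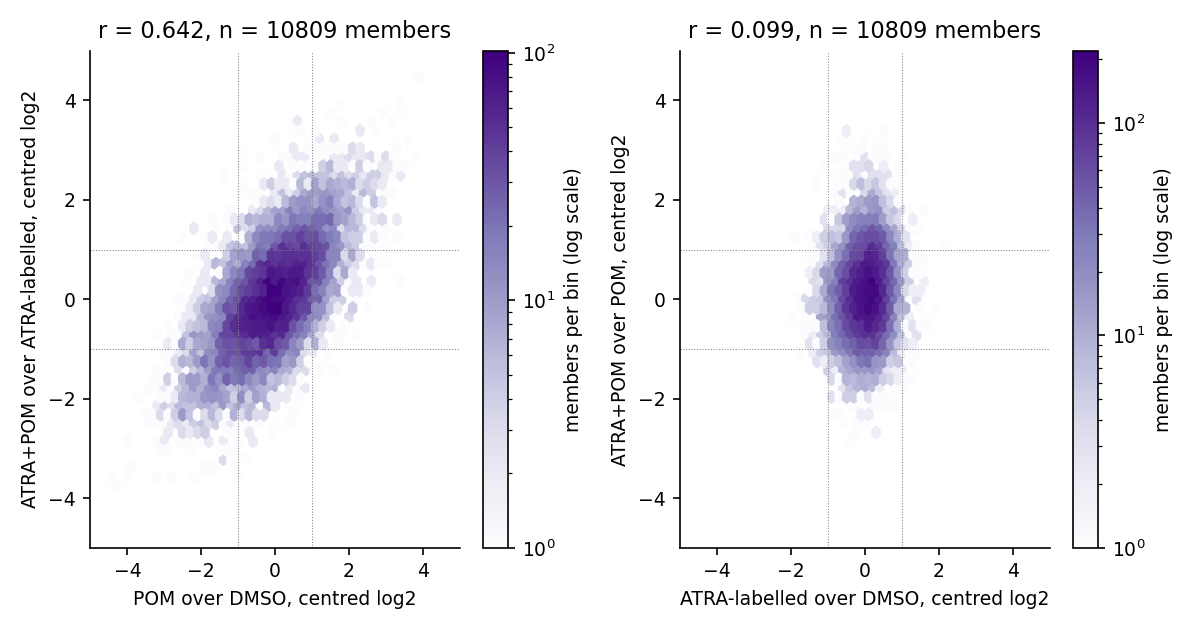
Left: centred log2 difference of ATRA+POM over ATRA-labelled (vertical) against POM over DMSO (horizontal) for the 10809 members. Right: ATRA+POM over POM (vertical) against ATRA-labelled over DMSO (horizontal). Shading counts members per bin on a log scale and dotted lines mark 2-fold; the pomalidomide comparisons line up along the diagonal (r = 0.642) and the retinoid comparisons do not (r = 0.099).

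In 555 members (5.13%) both pomalidomide lists were at least 2-fold above both others on the centred scale, and in 595 (5.50%) both were at least 2-fold below. The background over all regions of the 4 lists was 3.93% above and 3.86% below, and at gene ends 0.97% and 1.00%. In regions of 3000 bp or more it was 6.11% above and 3.85% below, so the pattern above was not particular to members. By summit reads the split was 996 above and 620 below, and without centring 372 above and 659 below.

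The widest gaps upward were at ALG14, MOXD1, NEGR1 and ZNF385B (a zinc finger gene). The ALG14 region (1:95068598-95070644, inside the gene and 3.33 kb from its end) had a fold of 69.5 in the ATRA+POM list and 126.5 in the POM list, against 6.33 in the ATRA-labelled list and 10.8 in the DMSO list. The MOXD1 region, 105 kb from that gene, had 84.5 and 118 in the ATRA+POM and POM lists, against 6.56 in the ATRA-labelled list and 10.0 in the DMSO list. Summit reads were 1120 and 1893 in the ATRA+POM and POM lists at ALG14, against 9 in the ATRA-labelled list and 56 in the DMSO list. Both regions were weak in the lists without pomalidomide and strong in both lists with it.

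The widest gaps downward were at EDEM1, GOLPH3, CAMKMT (a calmodulin methyltransferase), BLK (a kinase of B cells) and SLC38A2 (an amino acid transporter, 178 kb away). The EDEM1 region (3:5197107-5199431, inside the gene) had a fold of 3.38 in the ATRA+POM list and 3.85 in the POM list, against 44.5 in the ATRA-labelled list and 59.5 in the DMSO list. The BLK region had 6.46 and 10.6 in the ATRA+POM and POM lists, against 56.0 in the ATRA-labelled list and 79.2 in the DMSO list. All 5 regions were strong in the lists without pomalidomide and weak in both lists with it.

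**Figure D3:**
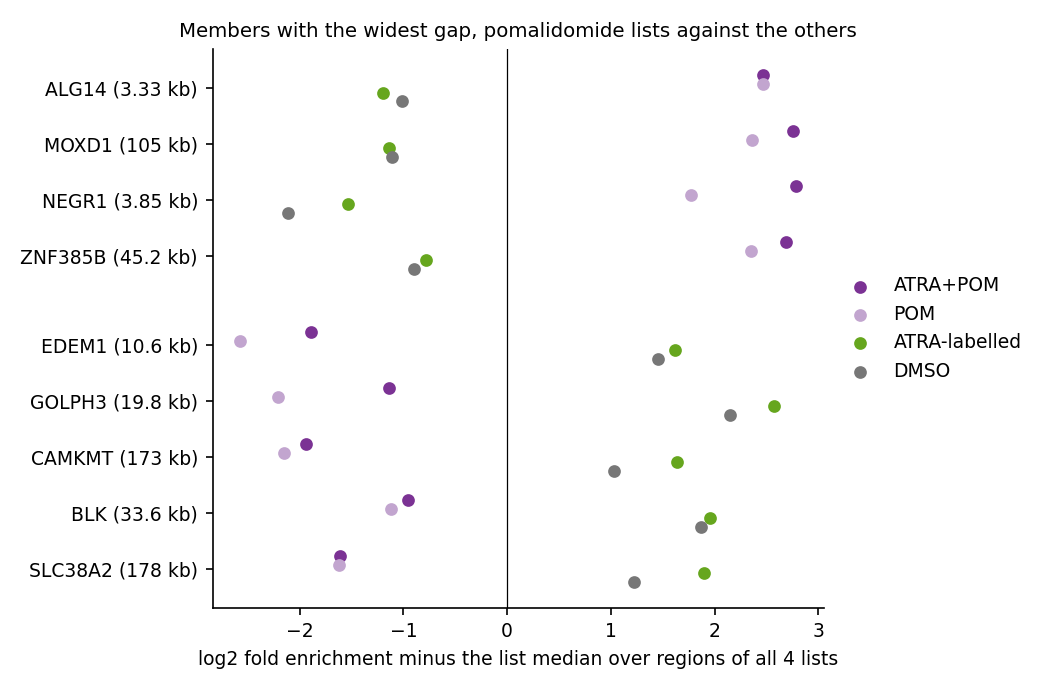
Centred log2 fold (horizontal axis, 0 is the median of the regions of all 4 lists in that list) of the 4 members with the widest gap above (top) and the 5 with the widest gap below (bottom) the lists without pomalidomide; each row is 1 member, named by the gene of the nearest end with its distance, and each point is 1 list. In every row both pomalidomide lists stand on one side of 0 and both others on the opposite side.

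Adding the retinoid was compared in POM-treated and in solvent-treated cells. In ATRA+POM over POM, 1413 members (13.1%) were 2-fold higher and 658 (6.09%) 2-fold lower, against a background of 8.73% and 7.02%. Relative to regions at gene ends the split was 1920 higher and 399 lower, by summit reads 1528 higher and 433 lower, and without centring 207 higher and 3507 lower. With the ATRA-labelled list left out of the rule, 2050 regions were higher and 1022 lower. The highest members were at DOP1A, SLC2A5 (the fructose transporter GLUT5), UQCRFS1 (1807 kb away), FBXL7 (133 kb away) and NRG1 (a growth factor, 18.4 kb away). The lowest were at SV2B (169 kb away), RIPOR1, MYO5B, WWC1 and HNRNPD (386 kb away). The DOP1A region had a fold of 39.6 in the ATRA+POM list and 6.26 in the POM list, with 5.61 in the ATRA-labelled list and 11.2 in the DMSO list. The MYO5B region had 8.90 in the ATRA+POM list, 103.5 in the POM list, 8.56 in the ATRA-labelled list and 9.504 in the DMSO list. DOP1A thus stood high in the ATRA+POM list alone and MYO5B in the POM list alone.

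ATRA-labelled over DMSO had few members past 2-fold, with 119 (1.10%) higher and 203 (1.88%) lower, against a background of 0.851% and 2.84%. By summit reads the split was 82 higher and 63 lower, relative to gene ends 315 higher and 95 lower, and without centring 13 higher and 1163 lower. The highest were at VKORC1L1 (114 kb away), HMGN4, FOS, THNSL1 (48.9 kb away) and UBE2Q2. The lowest were at RAI1, TPTE (108 kb away), LOC107987067 (209 kb away), TP63 (94.1 kb away) and HSBP1L1. Reads were few there: the VKORC1L1 region rested on 11 reads in the ATRA-labelled list, against 31 in the DMSO list, and the RAI1 region on 7 reads, against 95. The region 41.1 kb from FOS, an immediate early gene, had a fold of 25.8 in the ATRA+POM list, 39.5 in the POM list, 9.72 in the ATRA-labelled list and 4.79 in the DMSO list, the lowest value being that of DMSO.

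The retinoid comparisons with and without pomalidomide, which share no library either, correlated with r = 0.099 across members. Of the 119 members higher in ATRA-labelled over DMSO, 21 (17.6%) were higher in ATRA+POM over POM, which is 1.49% of the 1413. Of the 203 lower ones, 15 (7.39%) were lower there, 2.28% of the 658. Over all members, 13.1% were higher and 6.09% lower in ATRA+POM over POM, so both overlaps are near the general rate. Opposite differences past 2-fold were seen in 7 of the 119 and in 22 of the 203. The reads of the ATRA-labelled list limit what this comparison can show.

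Members far from annotated starts differed between lists more often than members near them. In POM over DMSO, 15.2% of the 1164 members within 1 kb of a start were past 2-fold in either direction (13.3 to 17.4), 24.2% at 1 to 10 kb, 30.2% at 10 to 50 kb, 35.4% at 50 to 200 kb and 37.6% beyond 200 kb (34.1 to 41.3). In ATRA+POM over POM the share was 12.3% within 1 kb and 23.4% beyond 200 kb, and in the most distant bin 146 members were higher and 19 lower. These directions rest on the scaling, since without centring 207 of all members were higher and 3507 lower in that comparison. In ATRA-labelled over DMSO the order was not the same, with 4.81% within 1 kb and 2.27% beyond 200 kb.

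Level differs with distance too, with a DMSO median fold of 20.9 within 1 kb and 16.7 beyond 200 kb, so the members were also split into 5 equal groups by strength. In POM over DMSO, from the weakest group to the strongest, 17.7, 24, 29, 19.5 and 16.3% of members up to 10 kb from a start were past 2-fold, and 26.8, 36.3, 47.9, 44 and 24% of members over 50 kb from one. The share was higher over 50 kb in each of the 5 groups. The middle group had the largest share in both distance classes. Strength was the rank used above for the strongest members, a mean over the same lists that are compared. A region strong in some lists and weak in others thus tends towards the middle by the way the groups were made. The larger share there is therefore no separate finding, and the part of the grouping in it was not tested.

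**Figure D4:**
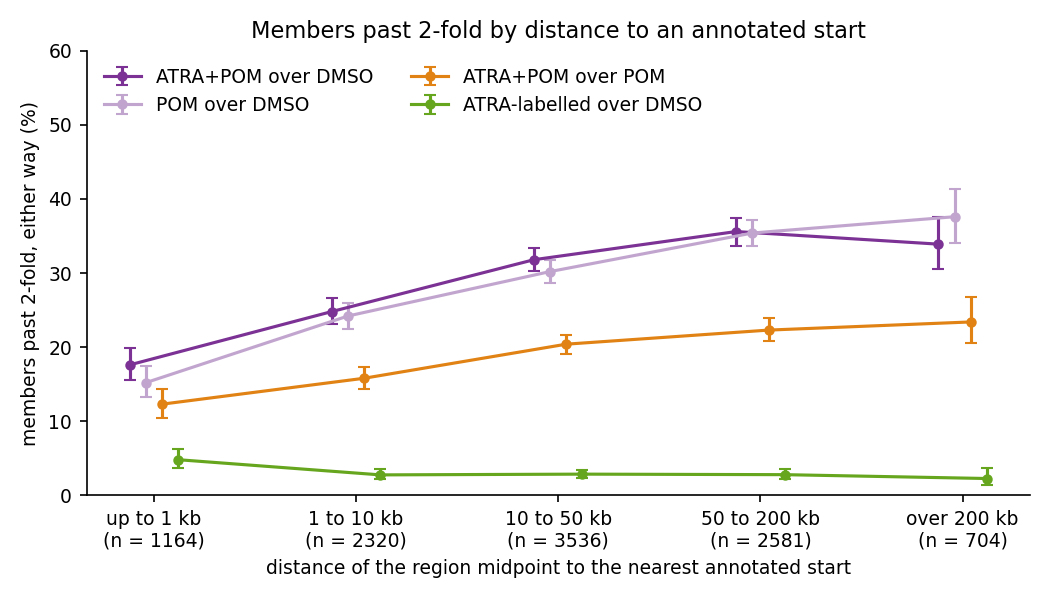
Percent of members past 2-fold in either direction (vertical axis) by distance of the midpoint to the nearest annotated start (horizontal axis, 5 bins), with 95% Wilson intervals that cover counting error only; each line is 1 comparison. ATRA+POM over DMSO, POM over DMSO and ATRA+POM over POM have their lowest share in the nearest bin, and ATRA-labelled over DMSO stays under 5% in every bin.

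Neighbouring members tended to differ in the same way. Over 1658 pairs of adjacent members less than 5 kb apart, the centred log2 values of POM over DMSO correlated with r = 0.336, and 30.2% of neighbours of a member past 2-fold were past it in the same direction, against 4.69% in the opposite one. For 3876 pairs over 200 kb apart, r was 0.014, with 15.1% in the same and 15.3% in the opposite direction. Some close pairs may be pieces of the same enriched stretch, as the smallest gap inside FIRRE was 67 bp. The part of such pairs in the likeness of neighbours was not tested. All pairs come from the same libraries, and pairs are not replicates.

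Genes known in myeloma and in the action of both compounds were looked up by locus. A member lay at the locus of 22.1% of all 19970 protein-coding genes, whose median length was 24.2 kb. The share was 53.8% for plasma cell transcription factors (14 of 26, median length 109 kb), 59.1% for myeloma surface proteins (13 of 22, 32.7 kb), 63.9% for chromatin regulators (23 of 36, 99.1 kb), 63.2% for the cereblon ligase and drug substrates (12 of 19, 51.7 kb) and 58.3% for the unfolded protein response (14 of 24, 18.4 kb). It was 50% for the NF-kB pathway (11 of 22), 40% for t(4;14) and cyclin genes (6 of 15), 38.2% each for retinoid genes and for cell cycle and replication genes (13 of 34 each), 25% for the BCL2 family (4 of 16) and 16.7% for interferon-stimulated genes (7 of 42). Long genes have more room for a region, and the part of length in these shares was not tested.

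Markers of other cell types were looked up in the same way. A member lay at 0 of 14 hepatocyte loci (which allows a share of up to 21.5%, the upper Wilson limit), 1 of 16 myeloid, 1 of 14 epithelial, 2 of 24 T and NK cell, 4 of 14 mature B cell and 5 of 16 neuron loci. The median gene length was 15.5 kb for hepatocyte, 10.0 kb for myeloid, 13.9 kb for epithelial, 14.1 kb for T and NK cell, 26.9 kb for mature B cell and 71.6 kb for neuron markers. The marker lists with low shares are thus lists of short genes, and among them cell identity and gene length cannot be told apart. Other lists of short genes varied. The share was 40% for t(4;14) and cyclin genes (13.9 kb), 58.3% for the unfolded protein response (18.4 kb) and 38.2% for cell cycle and replication (19.5 kb). It was 25% for the BCL2 family (16.9 kb) and 16.7% for interferon-stimulated genes (23.6 kb). The part of length was not tested. Neuron markers, at 31.2%, lay above the 22.1% of all genes. Of the plasma cell markers, SDC1 (the proteoglycan CD138), TNFRSF17 (the receptor BCMA), CD38, SLAMF7 and IRF4 had a member at the locus, and PRDM1 and XBP1 had none. The members at TNFRSF17 and CD38 were weak, with a DMSO fold of 8.73 and 6.10, against a median of 18.4 in members. They had 8 and 15 reads in the ATRA-labelled list. That at TNFRSF17 lies in the neighbouring gene NPIPB2, and those at CD79A and BAX lie closest to ARHGEF1 and FTL. MYC, CRBN, FGFR3 and MCL1 also had none, while members with their nearest gene end at MYC, XBP1, PRDM1 and MCL1 numbered 6, 4, 3 and 1.

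**Figure D5:**
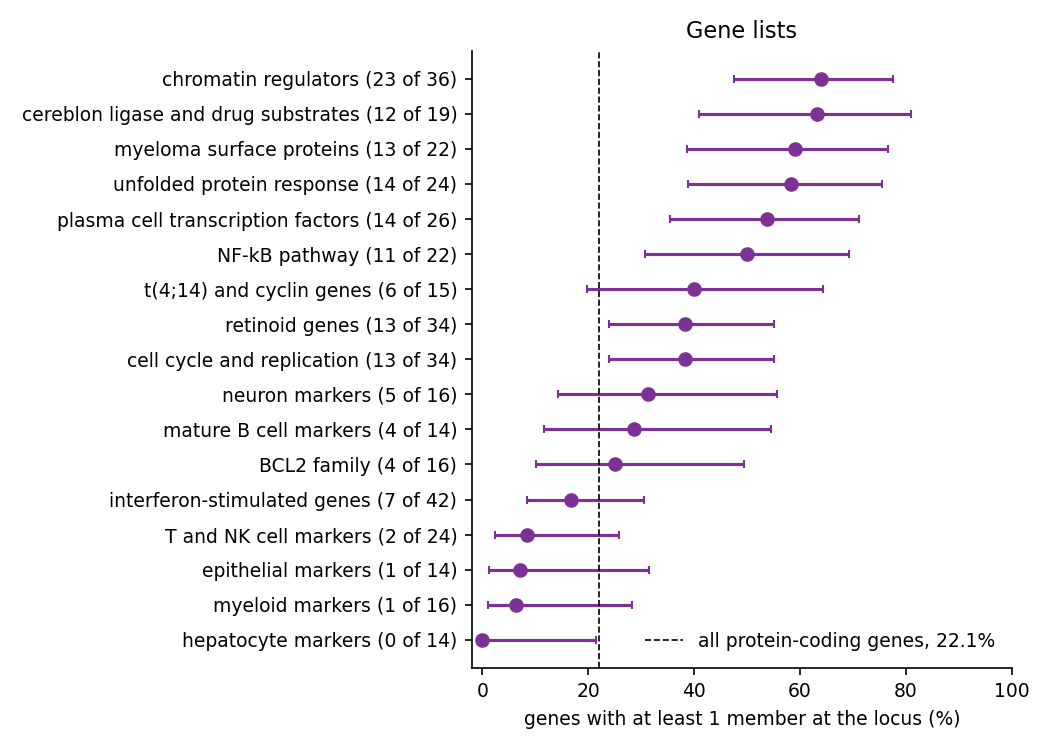
Percent of the genes of each list with at least 1 member at the locus (horizontal axis, gene body with 5 kb on both sides), with 95% Wilson intervals; the dashed line is the 22.1% of all protein-coding genes. Chromatin regulators have the highest share and hepatocyte markers the lowest.

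Among retinoid genes, 30 members lay at 13 loci, of which 6 were higher and 1 lower in POM over DMSO, 7 higher and 0 lower in ATRA+POM over DMSO, and 5 higher and 0 lower in ATRA+POM over POM. Over all members the shares higher and lower were 13.1% and 15.8% in POM over DMSO, 17.5% and 12.1% in ATRA+POM over DMSO, and 13.1% and 6.09% in ATRA+POM over POM. RARB, the retinoic acid receptor beta gene named in the study's title, held 5 members. One inside the gene (3:25404075-25405916) had a fold of 52.6 in the ATRA+POM list and 45.9 in the POM list, against 12.3 in the ATRA-labelled list and 16.1 in the DMSO list. Another (3:25450958-25453166) had 29.0 and 65.0 in the ATRA+POM and POM lists, against 7.32 in the ATRA-labelled list and 9.75 in the DMSO list. The other 3 were not past 2-fold in POM over DMSO. At both named RARB members the pomalidomide lists were high and the ATRA-labelled and DMSO lists low, and the ATRA-labelled list differed from the DMSO list by 0.08 and 0.05 on the centred log2 scale.

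NCOA3, a coactivator of nuclear receptors, had the same pattern at 2 of its 3 members. The member at 20:47564203-47566472 had a fold of 29.8 in the ATRA+POM list and 42.5 in the POM list, against 4.94 in the ATRA-labelled list and 6.60 in the DMSO list. That at 20:47585148-47586038 had 49.0 and 19.5 in the ATRA+POM and POM lists, against 4.49 in the ATRA-labelled list and 6.60 in the DMSO list. The second was highest with both compounds, 2.12 above POM alone on the centred log2 scale. Members at RARA (3) and MEIS1 (3) were not past 2-fold in POM over DMSO, and of the 4 at RXRA, the common partner of these receptors, 1 was higher. The member inside NRIP1, the gene of a corepressor that retinoic acid induces in many cells, had 27.0 in the ATRA+POM list, 12.8 in the POM list, 11.8 in the ATRA-labelled list and 12.8 in the DMSO list, and so stood higher with both compounds together.

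Among t(4;14) and cyclin genes, 0 of 16 members were higher and 6 lower in POM over DMSO (13.1% and 15.8% over all members), and 5 of the 6 were at CDK6, a cell cycle kinase that partners the D cyclins. The CDK6 locus held 7 members. That at 7:92768261-92770298 had a fold of 3.79 in the ATRA+POM list and 7.41 in the POM list, against 29.5 in the ATRA-labelled list and 41.4 in the DMSO list. The member at 7:92736693-92739323 had 6.74 and 5.04 in the ATRA+POM and POM lists, against 29.5 in the ATRA-labelled list and 33.6 in the DMSO list. A member near the far end of the gene (7:92621222-92623846) had 11.7, 16.7, 10.4 and 13.9 in the ATRA+POM, POM, ATRA-labelled and DMSO lists and was not past 2-fold. CCND2, the cyclin D2 gene, and NSD2, the methyltransferase gene of the translocation, had 1 and 3 members, none past 2-fold in POM over DMSO.

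Plasma cell transcription factor loci held 36 members, 2 higher and 5 lower in POM over DMSO, and 2 higher and 8 lower in ATRA+POM over DMSO. Over all members 13.1% were higher and 15.8% lower in POM over DMSO, so the 5 lower ones are near the general rate, and 17.5% were higher and 12.1% lower in ATRA+POM over DMSO. POU2F1, an octamer binding factor, had 3 of its 4 members lower in POM over DMSO. The member at 1:167252714-167254059 had a fold of 2.25 in the ATRA+POM list and 3.07 in the POM list, against 9.74 in the ATRA-labelled list and 10.0 in the DMSO list. RUNX1 had 1 of 6 members higher, with 46.8 in the ATRA+POM list and 41.9 in the POM list, against 14.2 in the ATRA-labelled list and 17.1 in the DMSO list. The member at IKZF1 had 11.8 and 16.0 in the ATRA+POM and POM lists, against 28.7 in the ATRA-labelled list and 33.6 in the DMSO list, and stood at -1.13 in POM over DMSO on the centred log2 scale. The 5 members at IKZF3 and the 2 at IRF4 were not past 2-fold in POM over DMSO.

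Unfolded protein response loci held 30 members, 2 higher and 5 lower in POM over DMSO, against 13.1% and 15.8% over all members, so the lower ones are near the general rate. Besides EDEM1, a member at the DDIT3 locus (the stress factor CHOP), nearest to MBD6, had a fold of 8.45 in the ATRA+POM list and 19.1 in the POM list, against 37.5 in the ATRA-labelled list and 57.5 in the DMSO list. At ASNS, asparagine synthetase, a member had 4.90 and 9.496 in the ATRA+POM and POM lists, against 12.6 in the ATRA-labelled list and 28.7 in the DMSO list. SEL1L, which serves the removal of misfolded proteins, went the opposite way with 20.5 in the ATRA+POM list and 35.8 in the POM list, against 10.1 in the ATRA-labelled list and 11.8 in the DMSO list. EDEM1 itself had another member, 1.49 kb from its end, with 31.3 in the ATRA+POM list, 75.4 in the POM list, 47.6 in the ATRA-labelled list and 25.9 in the DMSO list. The direction was thus not uniform within the list, nor within EDEM1.

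In the other lists the counts in POM over DMSO, to be read against 13.1% of all members higher and 15.8% lower, were small. There were 6 higher and 2 lower of 56 at chromatin regulators, 3 and 1 of 14 in the NF-kB pathway, 1 and 3 of 21 at the cereblon ligase and drug substrates, 3 and 0 of 8 at interferon-stimulated genes, 0 and 3 of 23 at myeloma surface proteins, 1 and 0 of 8 in the BCL2 family and 0 and 1 of 18 at cell cycle and replication genes. At NFKB1 a member near its end had a fold of 27.6 in the ATRA+POM list and 36.5 in the POM list, against 11.5 in the ATRA-labelled list and 12.5 in the DMSO list. At INSR, the insulin receptor gene, the strongest member had 23.99 and 57.4 in the ATRA+POM and POM lists, against 123 in the ATRA-labelled list and 117 in the DMSO list. IRF2, an interferon regulatory factor, had a member with 19.5 and 37.2 in the ATRA+POM and POM lists, against 7.11 in the ATRA-labelled list and 9.94 in the DMSO list. At CDH1, the E-cadherin gene and the 1 epithelial marker with members, 2 of 3 were higher in POM over DMSO, the strongest with 23.8 in the ATRA+POM list and 58.0 in the POM list, against 11.9 in the ATRA-labelled list and 15.2 in the DMSO list.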

How the data were processed

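Peak lists of 4 ChIP libraries of OPM-2 cells, 1 per treatment, were used; the 4 inputs enter only through the lists. Coordinates are in hg38, as the submitters' processing notes name it. Aligner, peak caller, antibody and depth: not given in the sources used here. The deposited values of each peak are a score, a fold enrichment (a ratio of summit to background), a −log10 p and a −log10 q, all as the authors made them for each list. Reads under a summit were recovered here from fold and p, on the inference from the values that the p is a Poisson one with 1 added to reads and background. They came out whole within 0.02 for 94.7% of ATRA-labelled and 100% of other peaks, with medians over all peaks of 65 in ATRA+POM, 72 in POM, 23 in ATRA-labelled and 78 in DMSO lists.

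Peaks were merged and classed by the rule given above, with 19970 protein-coding genes and 34961 annotated starts of RefSeq (GRCh38.p14), none of the starts on chromosome 8. The peak with the highest −log10 p stood for a region. Genes were named by a rule: 18 genes of plasma cells and of both compounds, the 10 strongest members, the 10 loci with the most members, the 5 highest and 5 lowest members of each comparison past 2-fold by fold and by summit reads, the 5 widest gaps of the pomalidomide pattern each way, the 5 largest groups, up to 4 genes per gene list, and 3 members or regions on each side of a limit; some regions the rule names are not reported here. Further members and genes (at NCOA3, NRIP1, CDK6, POU2F1, DDIT3, ASNS, SEL1L, EDEM1, NFKB1, IRF2 and RARB, noncoding genes, and those with sequences) were chosen after their values were seen. The members, gene lists and comparisons were chosen with earlier results of these data known. Intervals are Wilson for shares and Newcombe for differences, at 95%. The planned motif search around summits was not run, since no genome sequence was used. The code was tested on simulated data, where summit reads were recovered for 99.4% of 3000 peaks. The software was Python 3.11.15 with matplotlib 3.10.9, pandas 2.3.3, scipy 1.17.1 and numpy 2.4.6.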

Additional observations from a re-analysis of the deposited data

Results flagged for a closer look

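In 3 members the pomalidomide change ran in opposite directions past 2-fold with and without the retinoid, being higher in POM over DMSO and lower in ATRA+POM over ATRA-labelled, and in 29 members it was lower in POM over DMSO and higher in ATRA+POM over ATRA-labelled. These were singled out because the 2 differences have opposite signs; the difference itself was not tested. The region inside WWC1 (5:168408716-168410867) had the widest gap of the first kind, with centred log2 values of 1.58 in POM over DMSO and -1.35 in ATRA+POM over ATRA-labelled, a difference of 2.93. Its fold was 7.19 in the ATRA+POM list, 76.7 in the POM list, 21.7 in the ATRA-labelled list and 24.6 in the DMSO list. The region inside SLC2A5 (1:9079461-9081803) had the widest gap of the second kind, with -2.29 in POM over DMSO and 1.49 in ATRA+POM over ATRA-labelled, a difference of -3.78. Its fold was 53.2 in the ATRA+POM list, 9.23 in the POM list, 22.5 in the ATRA-labelled list and 43.4 in the DMSO list.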

How the results depend on the processing

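Of 107 alternative values for 36 results, 56 kept within the spread or 1.5 times of the reported value, 51 moved and 0 reversed. A reversal could be recorded only for the correlations, so the 0 says nothing of the counts and shares. Without centring the more frequent direction turned in ATRA+POM over POM, over DMSO and over ATRA-labelled. The cause of these moves was not tested. No paired analysis was possible because each treatment has 1 library and the labels carry no replicate numbers. The motif search in windows around summits was not run. Members numbered 5498 in the stronger 50% of each list. The share inside gene bodies was 53.0% with a distance limit of 3000 bp, 54.2% with a width limit of 2000 bp and 58.6% with 5000 bp, and the median distance to a gene end 40.3 kb with the distance limit of 3000 bp. Summits were shared in 36.6% of members within 50 bp and 67.9% within 200 bp.

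At 3-fold, higher and lower members numbered 718 and 595 in ATRA+POM over ATRA-labelled, 340 and 123 in ATRA+POM over POM, 809 and 413 in ATRA+POM over DMSO, 474 and 669 in POM over DMSO, and 3 and 9 in ATRA-labelled over DMSO. In the stronger 50% of each list they numbered 709 and 660, 580 and 261, 761 and 523, 555 and 707, and 23 and 64 in the same order. Centred on gene ends, 399 were lower in ATRA+POM over POM, and 315 higher and 95 lower in ATRA-labelled over DMSO. Without centring, 207 and 3507 were higher and lower in ATRA+POM over POM, 584 and 3925 in ATRA+POM over DMSO, and 13 and 1163 in ATRA-labelled over DMSO. By summit reads, 433 were lower in ATRA+POM over POM and 63 in ATRA-labelled over DMSO.

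The pomalidomide pattern counted 996 members above by summit reads, and 176 above and 180 below at 3-fold. By the nearest gene end, 12 interferon-stimulated genes, 8 T and NK cell, 4 epithelial and 1 hepatocyte markers had a member. Alternatives chosen after seeing the data were the following. With the ATRA-labelled list left out of the rule, 2760 regions were higher in POM over DMSO, 3485 in ATRA+POM over DMSO, and 1022 lower in ATRA+POM over POM. Among members with summits within 100 bp, 292 were above and 337 below in the pomalidomide pattern. By summit reads the likeness of the pomalidomide comparisons was r = 0.726. Centring within 10 strata of level kept every count of higher or lower members within 1.5 times of the reported one, but turned the more frequent direction in POM over DMSO (1507 higher and 1446 lower), as summit reads did (1710 and 1558). The ATRA-labelled list, with a median of 31 summit reads in members, limits every comparison that uses it.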
